A study of Aspergillus niger with 11 samples.

Results

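The less abundant transcripts of Aspergillus niger were compared between the later and the earlier libraries of an oxygen-limited fed-batch fermentation. A gene was counted as less abundant when its mean FPKM over all 11 libraries lay between 10 and 100, which took 3831 of the 10445 genes (36.7%). FPKM is the number of fragments of a gene scaled to the length of its transcript and to the mapped total of the library. Of these genes, 2228 had a mean under 30 FPKM and 1603 had a mean of 30 FPKM or more. Nearest to the lower bound, An01g15050 and An04g04700 were kept at 10 and 10.002 FPKM, and An02g05630 and An01g03850 were left out at 9.996 and 9.998 FPKM. Nearest to the upper bound, An09g06220 and An02g08680 were kept at 99.7 and 99.8 FPKM, and An04g01665 and An09g05910 were left out at 100.05 and 100.13 FPKM.

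All libraries came from strain DS03043 under the same oxygen-limited treatment. The later libraries were 3 of the middle limited phase (42 h) and 2 of the late limited phase (66 h). The earlier libraries were 3 of the exponential phase (18 h) and 3 of the early limited phase (24 h). The labels list the 4 times for the whole series, and here each phase was given its time in chronological order. The growth phase label of the 18 h libraries names no oxygen limitation, while those of 24, 42 and 66 h do, so the earlier libraries mix both. No parallel culture kept without oxygen limitation at the later times was among the libraries. Culture age, growth phase and oxygen supply therefore cannot be told apart in any difference given here. Whether replicates were separate cultures is not stated in the labels. The p-values therefore speak only of the spread among these libraries, part of which may be technical.

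Aspergillus niger is a filamentous fungus grown at industrial scale for secreted enzymes and organic acids, and it depends on respiration for growth. Transcripts at these low levels include those of regulators, of many biosynthetic enzymes and of folding and transport proteins of the secretory pathway. In filamentous fungi the cross-pathway control factor CpcA activates genes of amino acid synthesis when amino acids run short, and acid proteases are secreted into the medium of ageing cultures.

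Few reads stood behind each value. In 3758 of the genes (98.1%) the low FPKM values were whole multiples of a step, which is what 1 read is worth, with a median of 15.6 FPKM. Counted in these steps, the median gene had 2 reads in every library. Depth relative to the shallowest library was 1.38 to 1.59 in the later libraries and 1.00 to 1.21 in the earlier ones, and the part of this gap in the results was not tested beyond the settings given at the end. The share of the genes listed at 0 was 22.0% to 24.2% in the later libraries and 23.4% to 27.5% in the earlier libraries. The genes took 11.6% to 12.5% of the FPKM of each library. Of the libraries, 24 h replicate 1 stood apart from the other earlier ones towards the later ones in the genes that rose, as described below, and counts are also given without it.

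Of 3816 genes tested, 283 (7.42%) changed between the later and the earlier libraries at an adjusted p under 0.05 with limma, and 122 rose and 161 fell. Over all 8693 genes of the series that were tested, the same fit called 8.67% (3.89% higher and 4.79% lower). In this fit the share among the less abundant genes was close to that background. Both this closeness and the excess of falls over rises depended on the setting, as given at the end. At an unadjusted p under 0.05 there were 882 genes (23.1%), against 21.2% of all genes tested. The median difference over the 3816 genes was -0.03 on the log2(FPKM + 1) scale, and it was 0.03 over all genes tested. The 15 genes not tested were above 0 in 1 library each, and their means were at most 17.7 FPKM.

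The changes called were large on the log2(FPKM + 1) scale, as only differences large against their standard errors can be called. The 122 rises ranged from 1.40 to 6.47 on the log2(FPKM + 1) scale with a median of 3.81. The 161 falls ranged from -1.27 to -7.27 with a median of -3.67. All 283 were therefore 2-fold or more on that scale. The median standard error of the log2 difference was 1.21 for genes with a mean of 10 to 30 FPKM, 0.78 for those at 30 to 100 FPKM and 0.32 for genes above 100 FPKM. The share called moved with it. It was 4.97% at 10 to 30 FPKM (48 rose and 62 fell) and 10.8% at 30 to 100 FPKM (74 rose and 99 fell), against 32.6% of the 1330 genes above 100 FPKM. No change under 2-fold was called.

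**Figure D1:**
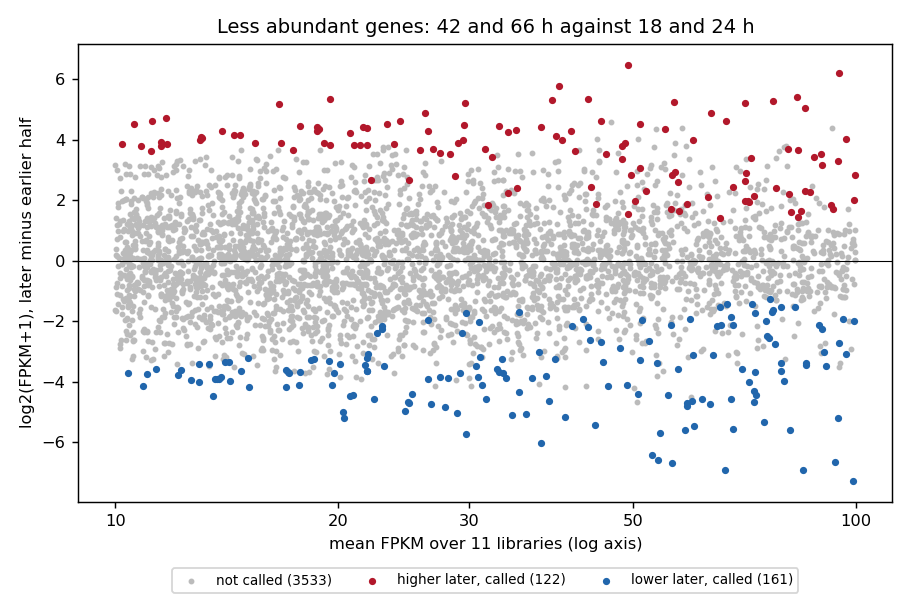
Difference between the later and the earlier libraries, on the log2(FPKM + 1) scale, against the mean FPKM over 11 libraries on a log axis; each point is 1 of the 3816 genes tested. The 122 genes called higher (red) and the 161 called lower (blue) lie at the outer edges of the cloud, and the edge comes closer to 0 as the level increases.

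Many of the genes called had no read in part of the libraries of 1 period. In any 1 library, 22.0% to 27.5% of all the less abundant genes were at 0. Of the 122 genes that rose, 117 were above 0 in all 5 later libraries, and 71 were at 0 in at least 3 of the 6 earlier ones. Of the 161 genes that fell, 144 were above 0 in all 6 earlier libraries, and 89 were at 0 in at least 3 of the 5 later ones. The same counts were not made over all genes tested, and 1 read is a large step on this scale, so nothing is read from them. The values of the later and the earlier libraries did not overlap at all in 189 of the genes called (75 higher and 114 lower), and such genes made up 6.27% of all genes tested in the series. Without regard to the test, the libraries did not overlap in 277 of the 3816 genes (7.26%; 122 higher and 155 lower), against 8.01% of all genes tested. The genes called had a median of 36 reads over the 11 libraries, with a range of 5 to 247, and those not called had a median of 21. In 71 of those called, fewer than 20 reads stood behind the call.

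Among genes seen in both periods whose libraries did not overlap, An14g00290 had the largest rise on the log2(FPKM + 1) scale. It stood at 68.3, 57.9 and 76.8 FPKM at 42 h and at 89.2 and 133 FPKM at 66 h, and in the earlier libraries it was above 0 only in 24 h replicate 1, at 10.6 FPKM. In reads these were 53 against 1, a ratio per depth of 47.6 with a 95% counting interval of 8.18 to 1920. The difference was 5.78 on the log2(FPKM + 1) scale (SE 0.88, adjusted p = 0.000558). Every later library was thus far above the single earlier read. The reference table used here gives no name to this locus or to the others cited by locus below, so no role is given for them.

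An03g06410 stood at 125, 107 and 166 FPKM at 42 h and at 84.3 and 89.0 FPKM at 66 h, and in the earlier libraries only 24 h replicates 1 and 2 were above 0, at 34.4 and 18.7 FPKM. Its log2 difference was 5.23 (SE 1.03, adjusted p = 0.00431). An01g08070 reached 186 and 181 FPKM at 66 h and 98.6, 111 and 98.4 FPKM at 42 h, while 24 h replicate 1 held 81.6 FPKM, another 24 h library 22.7 FPKM and the remaining earlier libraries 0. Its later values lay above all earlier ones, but 24 h replicate 1 came close to them.

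An02g03970 was the best covered of the largest rises, with 74 later and 6 earlier reads. It held 146, 189 and 110 FPKM at 42 h and 191 and 213 FPKM at 66 h, and the earlier libraries had a lowest value of 0, a median of 6.96 and a highest value of 60.6 FPKM, again in 24 h replicate 1. The log2 difference was 5.05 (SE 1.04, adjusted p = 0.00566). An10g00540 had 52 later reads against 2 earlier reads and a log2 difference of 4.60 (adjusted p = 0.00486). It was above 0 in all later libraries, at 18.9 to 69.6 FPKM, and the highest earlier value was 6.41 FPKM.

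The other 5 of the 10 largest rises were An04g07220, An02g02830, An02g11140, An04g04360 and An04g05730, with log2 differences of 4.40 to 5.20. An04g07220 had 29 later reads and 1 earlier read, which gives a ratio per depth of 26.0 (95% counting interval 4.32 to 1060). The least stable of them was An02g02830, whose adjusted p of 0.0277 exceeded 0.05 in 9 of 23 other settings. It was 0.0528 to 0.0698 without any 1 of the 5 later libraries, 18 h replicate 1 or 24 h replicates 2 or 3. That of An04g05730 was 0.0602, 0.0508 and 0.0531 without 42 h replicate 1, 66 h replicate 1 and 66 h replicate 2. Each of those 5 genes was at 0 in at least 4 of the 6 earlier libraries.

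The largest fall on the log2(FPKM + 1) scale among genes seen in both periods was that of An18g02410. It was at 0 in 4 of the 5 later libraries and at 10.1 FPKM in 66 h replicate 1, against a lowest value of 71.9, a median of 185 and a highest value of 219 FPKM in the earlier libraries. The log2 difference was -6.64 (SE 0.74, adjusted p = 4.65e-05). The lowest earlier value was again that of 24 h replicate 1. No step could be recovered for this gene, so its reads are not known.

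An12g01620 had 9.08 FPKM in 42 h replicate 1 and 0 in the other later libraries, against 23.4 to 163 FPKM in the earlier ones. Its reads were 1 later and 50 earlier, a ratio per depth of 0.018 (95% counting interval 0.000446 to 0.105), and the log2 difference was -5.68 (SE 0.85, adjusted p = 0.00049). Its 24 h values, at 135 to 163 FPKM, lay above its 18 h values, at 23.4 to 66.8 FPKM. That difference was not called (1.75 on the log2 scale, adjusted p = 0.542). An14g06140 had the opposite order within the earlier libraries, also without a call (-1.84, adjusted p = 0.552). It held 85.0 to 119 FPKM at 18 h and 9.60 to 42.7 FPKM at 24 h, and 1 read in 1 later library (log2 difference -5.06, SE 0.91, adjusted p = 0.00222).

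Of these falls with recovered reads, An02g13940 was the best covered, with 1 later and 62 earlier reads. It was at 3.35 FPKM in 42 h replicate 1 and at 0 in the other later libraries, against 21.6 to 59.3 FPKM earlier, with a log2 difference of -4.97 (SE 0.81, adjusted p = 0.000989). An12g01270 was at 0 in all 3 libraries of 42 h and at 12.3 and 25.9 FPKM at 66 h, against 95.3 to 175 FPKM in the earlier libraries. It was the only gene among the 283 that was also called between 66 h and 42 h, where it was higher at 66 h by 4.24 (SE 0.66, adjusted p = 0.0294). That call was lost without 66 h replicate 1 (0.0813) or 66 h replicate 2 (0.256), on recovered reads (0.471), with a filter of 5 libraries (0.0642), and with a pseudocount of 5 FPKM (0.176) or of 1 read per gene (0.9). A replicate block also removed that call (0.154). Both 66 h values of An12g01270 stayed below every earlier value.

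The other 5 of the 10 largest falls were An07g02140, An01g14140, An02g06130, An16g09170 and An01g14510, with log2 differences of -4.83 to -5.60. Each had 1 or 2 reads in all later libraries together, against 19 to 33 reads in the earlier ones. None of them lost its call in any of the 23 other settings.

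**Figure D2:**
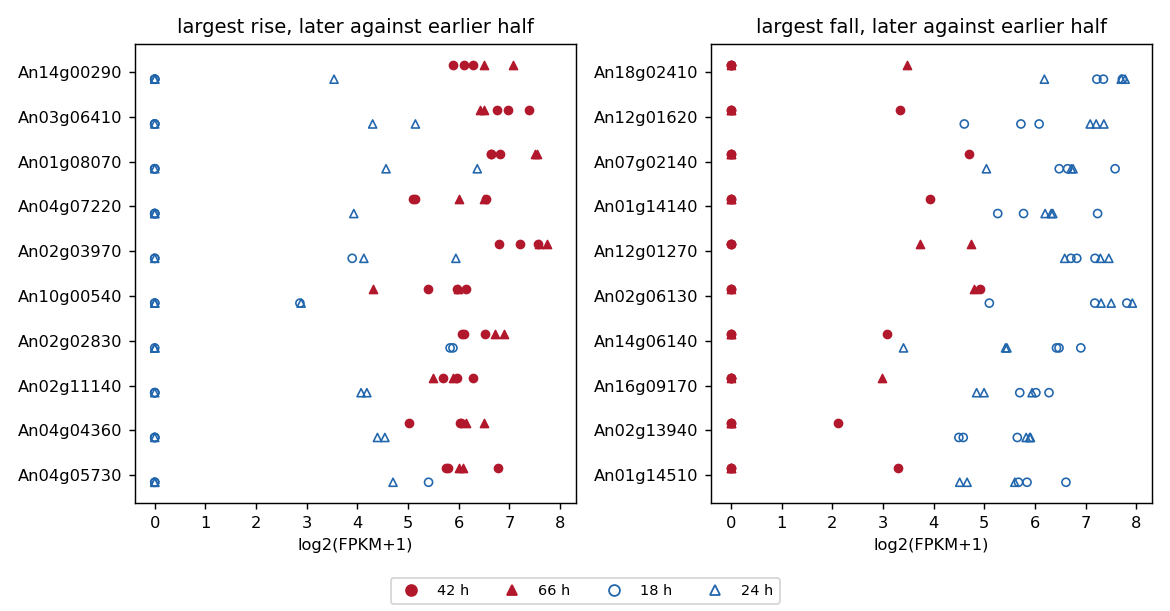
Values of the 10 genes with the largest rise (left panel) and the 10 with the largest fall (right panel) among genes called that were above 0 in both periods and did not overlap, on the log2(FPKM + 1) scale. Each point is 1 library; filled red symbols are 42 and 66 h and open blue symbols are 18 and 24 h, and most points on the low side lie at 0, that is, without a read.

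Some genes had reads in 1 period only. Of the 3816 genes, 34 were at 0 in all earlier libraries, and 11 of these were called (0.288% of the genes tested), against 0.38% of all genes tested in the series. Over the series 422 genes were at 0 in all earlier libraries, and 7.82% of them were called. In the other direction 92 were at 0 in all later libraries, and 28 were called (0.734%), against 0.449% of all genes tested, and 8.06% of the 484 genes at 0 in all later libraries were called. Such genes reached a mean of 10 FPKM through the period with reads alone, so nothing is read from these shares. The 5 risen genes of this kind with the highest later mean were An01g00550, An07g06220, An16g07080, An11g06130 and An07g04750. An01g00550 held 150, 102 and 210 FPKM at 42 h and 39.1 and 41.3 FPKM at 66 h, which are 37 reads in all against 0. Set against a floor of 3 reads over the earlier libraries, it was at least 11.1-fold higher in the later libraries (adjusted p = 0.000129). The floor takes the later reads as exact, and the 95% counting interval of the ratio, which does not, started at 8.57. An11g06130 had 19 later reads, at 20.6 to 65.4 FPKM, and was at least 5.69-fold higher against that floor (interval from 4.19, adjusted p = 0.00065). The other 3 rested on 5 to 9 reads and were 1.5-fold to 2.69-fold above the floor. Their counting intervals started at 1.77 for An07g06220, 0.823 for An16g07080 and 1.06 for An07g04750, so that of An16g07080 includes no change. The calls of An07g06220, An16g07080 and An07g04750 were lost when the test was run on recovered reads, with adjusted p of 0.0699, 0.276 and 0.218. With a pseudocount of 1 read per gene, those of An16g07080 and An07g04750 were lost as well (0.192 and 0.163). An07g04750 also lost its call without 42 h replicate 1 (0.0539) or 66 h replicate 2 (0.053).

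The 5 genes that fell to 0 from the highest earlier mean were An04g08190, An01g07740, An13g02980, An08g10870 and An09g00540. An04g08190 had no read in any later library, against a lowest value of 34.4, a median of 191 and a highest value of 274 FPKM in the earlier ones. Its 31 earlier reads make it at least 11.5-fold lower in the later libraries against a floor of 3 reads there (adjusted p = 1.44e-05), and the counting interval of its ratio per depth reached up to 0.113. An09g00540 was the most even of them, at 76.2 to 126 FPKM in the 6 earlier libraries, and was at least 8.91-fold lower against the floor (24 reads, ratio up to 0.149, adjusted p = 1.44e-05). An01g07740 was at least 6.31-fold lower against the floor (ratio up to 0.218), and its earlier values were higher at 18 h, at 166 to 305 FPKM, than at 24 h, at 55.0 to 61.5 FPKM. An08g10870 is listed at 0 in all later libraries, against 75.9 to 150 FPKM in the earlier ones (adjusted p = 9.16e-06), and no step could be recovered for it. An13g02980 was at least 10.4-fold lower against the floor (ratio up to 0.126, adjusted p = 0.0145), and 4, 8 and 14 of its 28 earlier reads were in the 24 h libraries, where it held 119, 258 and 463 FPKM.

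The genes with the most recovered reads among those called had smaller differences on the log2(FPKM + 1) scale than the largest rises and falls above. In reads per depth the order was not always the same. The ratio was 8.41 for An08g10650, against 47.6 for An14g00290 but 4.72 for An02g02830 and 5.99 for An04g05730 among the largest rises. The 4 in each direction given here were picked for their read totals after their values were seen. An08g10650 held 136, 135 and 114 FPKM at 42 h and 229 at both 66 h libraries, against a lowest value of 5.36, a median of 15.5 and a highest value of 43.6 FPKM earlier. With 206 later and 22 earlier reads, its ratio per depth was 8.41 (95% counting interval 5.41 to 13.7), and the log2 difference was 3.41 (SE 0.61, adjusted p = 0.00206). An18g03150 had 197 later and 22 earlier reads and a log2 difference of 3.29 (SE 0.53, adjusted p = 0.000942). It was even within the later libraries, at 151 to 212 FPKM, and ranged from 5.51 to 48.1 FPKM in the earlier ones.

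An12g00550 and An12g04720 rose less, by 1.85 (SE 0.38, adjusted p = 0.0056) and 1.97 (SE 0.42, adjusted p = 0.00752), on 178 and 158 later reads against 46 and 37 earlier reads. Of the falls, An12g10480 had 41 later and 206 earlier reads, at 4.88 to 33.6 FPKM later and 69.8 to 175 FPKM earlier, and a log2 difference of -2.56 (SE 0.50, adjusted p = 0.00376). An02g02040 fell by 2.65 (adjusted p = 0.00361) and An04g01150 fell by 2.11 (adjusted p = 0.0056). In these genes, as in An08g10650 and An18g03150, no later value overlapped an earlier one, and all 8 were called in each of the 23 other settings.

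An08g06780 completed the 8 and lies next to another gene that fell. It held 0 to 26.8 FPKM in the later libraries, against 34.6 to 204 FPKM in the earlier ones, with a log2 difference of -3.58 (SE 0.80, adjusted p = 0.0103). Its neighbour An08g06770 held 0 to 22.4 FPKM later and 36.6 to 122 FPKM earlier (log2 difference -3.34, SE 0.76, adjusted p = 0.0112). The pair did not share the order within the earlier libraries, where An08g06780 was higher at 18 h in all libraries and An08g06770 had its highest value in a 24 h library. Neither gene was called between 24 h and 18 h.

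Along the contigs of the RefSeq gene table, 13 pairs of called genes changed in the same direction with at most 1 gene between them (4 pairs higher and 9 pairs lower), among the 282 called genes that could be placed. No 3 called genes of 1 direction lay together in this way, and none of the pairs had overlapping gene models. An10g00540 lies beside An10g00550, which held 136 to 226 FPKM in the later libraries and 0 to 44.7 FPKM in the earlier ones on 103 and 12 reads (log2 difference 3.52, SE 0.79, adjusted p = 0.0107). An12g09010 and An12g09020 also rose side by side, by 4.14 and 4.38. An09g00540 and An09g00560, with 1 gene between them, both had no read in the later libraries, against 24 and 23 earlier reads. An09g00560 held 107, 48.0 and 40.3 FPKM at 18 h and at most 10.6 FPKM at 24 h. Its difference between 24 h and 18 h was not called (-3.59, adjusted p = 0.244). An13g02980 and An13g02990 were both at 0 later and had most of their reads at 24 h. Not all of these calls were stable. Of 23 other settings, An13g02990 kept its call in 11 and An09g00560 in 14, while An13g02980 and An09g00540 kept theirs in all 23. In other pairs, An08g01370 kept its call in only 7 and An01g14490 in 9. The number of such pairs was not tested.

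A symbol was given for 38 of the genes, which makes them the ones whose known roles can be stated. Of these, 1 was called (2.63%), against 7.42% of the less abundant genes and 8.67% of all genes tested. It is leu2A (An01g14130), which codes for 3-isopropylmalate dehydrogenase of leucine synthesis. It had no read in any of the 5 later libraries, and 3, 0 and 2 reads at 18 h and 2, 1 and 2 reads at 24 h, that is, a lowest value of 0, a median of 28.6 and a highest value of 38.8 FPKM earlier. It was at least 3.71-fold lower in the later libraries against a floor of 3 reads, on 10 earlier reads (adjusted p = 0.0279), and the counting interval of its ratio per depth reached up to 0.401. Like the other genes at 0 in 1 period, it reached its mean of 13.0 FPKM over all libraries through the period with reads alone. The call was kept in 15 of 23 other settings. Without any 1 of the 5 later libraries, 18 h replicate 1, 18 h replicate 3 or 24 h replicate 3, its adjusted p was 0.053 to 0.0597. Its neighbour An01g14140 fell as well (log2 difference -5.41, SE 0.85, adjusted p = 0.00073), with 1 later read and 26 earlier reads.

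No other gene of amino acid synthesis with a symbol passed the test. Called genes without a symbol could not be given a role. The gene argB, for ornithine carbamoyltransferase of arginine synthesis, held 11.1, 32.3 and 0 FPKM at 42 h and 19.4 and 0 FPKM at 66 h, against a lowest value of 15.4, a median of 69.9 and a highest value of 105 FPKM earlier. Its log2 difference was -3.19 (SE 0.97) with an adjusted p of 0.054, and it passed the threshold in 8 of 23 other settings. The gene trpC, for a multifunctional enzyme of tryptophan synthesis, held 0 to 21.0 FPKM later and 7.27 to 45 FPKM earlier (log2 difference -1.95, SE 0.86, adjusted p = 0.2). Of the 2 loci with the symbol cpcA, An01g07900 had 9 later and 25 earlier reads (log2 difference -2.93, SE 1.10, adjusted p = 0.122), and An01g07890 had 3 and 3 reads (-0.66, SE 1.88). In argB, trpC and both cpcA loci the later and the earlier values overlapped. Of the 4 loci in the list of amino acid and nucleotide synthesis, which are these 4, 0 were called, and their median log2 difference was -2.44, against -0.03 over the less abundant genes. The gene argA, which was outside that list, differed by -0.33 (SE 0.46).

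The 2 genes of secreted acid proteases had higher values in the later libraries, and they did not pass the test either. The gene pepA, for the major aspartic protease aspergillopepsin, held 73.2, 40.5 and 20.9 FPKM at 42 h and 18.2 and 19.2 FPKM at 66 h, against a lowest value of 0, a median of 6.50 and a highest value of 14.2 FPKM earlier. The later values all lay above the earlier ones, on 17 reads against 3, with a ratio per depth of 5.09 (95% counting interval 1.47 to 27.1). The log2 difference was 3.0 (SE 1.04, adjusted p = 0.0959). The locus proctase-A, for an acid protease of the glutamic type, had 11 later reads and 1 earlier read (log2 difference 3.33, SE 1.26, adjusted p = 0.128), and 1 of its later libraries was at 0. The vacuolar proteases pepC and pepE and the carboxypeptidase cpy differed by 0.31 (SE 0.52), 0.22 (SE 0.67) and 1.29 (SE 1.05). Of the 3 genes in the protease list, which are pepA, pepC and pepE, 0 were called, and their median log2 difference was 0.31.

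In central carbon metabolism 0 of 8 genes were called, with a median log2 difference of -0.43. The furthest from 0 relative to its error was pyc, for pyruvate carboxylase, which refills the citric acid cycle with oxaloacetate. It held 13.5, 35.8 and 37.0 FPKM at 42 h and 23.5 and 12.4 FPKM at 66 h, against a lowest value of 37.3, a median of 55.0 and a highest value of 68.6 FPKM earlier. No later value reached an earlier one, on 38 reads against 73, and the difference of -1.17 (SE 0.48) had an adjusted p of 0.159. The other 7 were citA for citrate synthase at -0.15 (SE 0.50), icdA for isocitrate dehydrogenase at -1.40 (SE 1.38), pfkA for phosphofructokinase at -0.19 (SE 0.55), hxk for hexokinase at -0.37 (SE 0.62), GlkA for glucokinase at 0.34 (SE 1.26), tpiA for triosephosphate isomerase at -0.50 (SE 1.46) and gsdA for glucose-6-phosphate dehydrogenase at -1.38 (SE 0.87). In all 7 the later and the earlier values overlapped, and the adjusted p was 0.384 to 0.944.

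Among genes of respiration, cyc, for cytochrome c, held 40.7, 79.2 and 40.5 FPKM at 42 h and 211 and 74.2 FPKM at 66 h, against 0 to 150 FPKM in the earlier libraries, of which 3 were at 0. Its log2 difference was 3.08 (SE 1.33, adjusted p = 0.185). A cytochrome c oxidase subunit, cox5, differed by -0.43 (SE 1.66), and a subunit of respiratory complex I, nuo51, by -0.12 (SE 1.10). Of the alcohol and aldehyde metabolism genes, adhA for alcohol dehydrogenase differed by 0.61 (SE 0.45) and aldA for aldehyde dehydrogenase by 1.37 (SE 0.87). Both held reads in all later libraries, at 45.8 to 82.8 FPKM and 22.7 to 49.3 FPKM, against 16 to 60.7 FPKM and 0 to 40.9 FPKM earlier, and the values overlapped.

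Of the secretory pathway list, 0 of 4 genes were called, with a median of 0.82. They were pdiA for protein disulfide isomerase at 0.92 (SE 1.14), its relatives tigA at 0.21 (SE 1.27) and prpA at 0.72 (SE 0.94), and the secretory GTPase srgA at 1.23 (SE 1.43). Of the 2 genes matched by symbol in the list of carbohydrate-active enzymes, 0 were called, with a median of 0.64. They were the polygalacturonase pgaC at 0.36 (SE 0.52) and the rhamnogalacturonan hydrolase rhgA at 0.92 (SE 0.90). Of the regulators, which include both cpcA loci, 0 of 4 were called, with a median of -0.07. Besides cpcA they were the carbon catabolite repressor creA at 1.61 (SE 1.40) and the pH regulator pacC. Among the genes with a symbol whose reads could be recovered, pacC was the best covered, with 91 later and 60 earlier reads. It stood at 95.3 to 117 FPKM in the later libraries and 39.1 to 132 FPKM in the earlier ones, with a difference of 0.52 (SE 0.36, adjusted p = 0.416). The acetate regulator facB differed by -0.41 (SE 0.39) and the TATA-binding protein gene tbpA by -1.10 (SE 1.31). Across all 38, 18 were higher and 20 were lower, the median was -0.14, and 8 (21.1%) had an unadjusted p under 0.05. The other 4 symbols, aglU, apsA, sgrB and Balu-42, matched no gene list, whatever their roles. They differed by -0.58, 0.81, -1.54 and -1.55, with an adjusted p of 0.339 to 0.767.

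**Figure D3:**
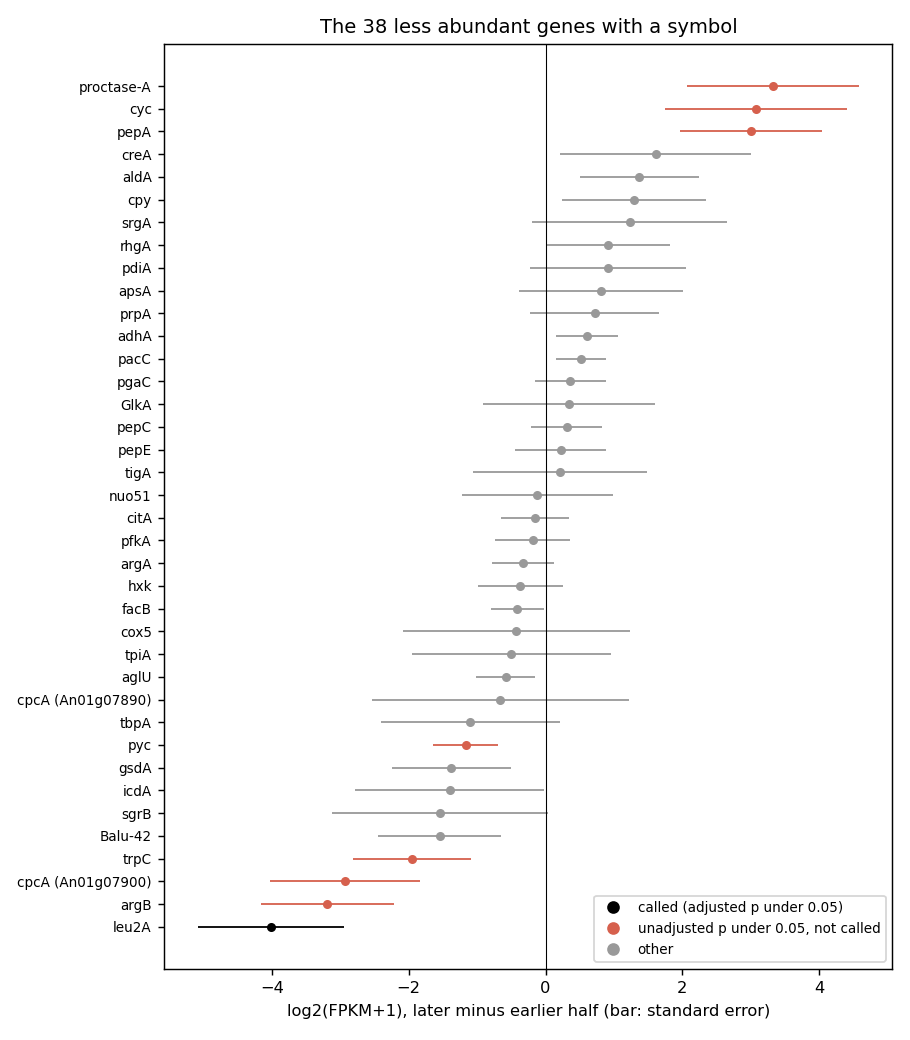
Difference between the later and the earlier libraries for the 38 less abundant genes with a symbol, on the log2(FPKM + 1) scale; the bars are standard errors. leu2A (black) is the only gene called, and 7 others in red had an unadjusted p under 0.05.

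The comparisons of single times called fewer of these genes than the pooled comparison. Against 18 h, 163 (4.27%) were called at 42 h and 153 (4.01%) at 66 h. Against 24 h, 93 (2.44%) were called at 42 h and 112 (2.94%) at 66 h. The shares over all genes tested in the series were 6.0% and 6.04% against 18 h, and 4.66% and 5.53% against 24 h. Together, 275 genes (7.21%) were called in at least 1 of those 4 comparisons, against 10.4% of all genes. The median standard error was 1.37 for the 42 h comparisons and 1.53 for the 66 h comparisons, against 1.07 for the pooled one. These comparisons share libraries with each other and with the pooled one, so their counts are not independent.

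The rises were fewer against 24 h than against 18 h. There were 80 rises and 83 falls at 42 h against 18 h, and 31 rises and 62 falls at 42 h against 24 h. Likewise there were 67 rises and 86 falls at 66 h against 18 h, and 29 rises and 83 falls at 66 h against 24 h. The difference between these counts was not tested. In all 122 genes that rose in the pooled comparison, both later time means lay above both earlier ones. The same held in reverse for all 161 falls. The 66 h mean lay further out than the 42 h mean in 75 of the 122 rises and in 74 of the 161 falls.

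**Figure D4:**
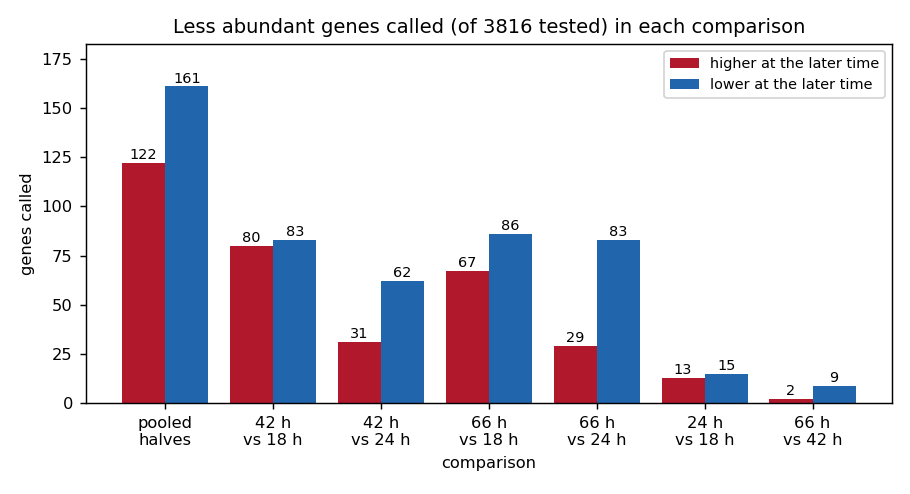
Number of the 3816 less abundant genes called at an adjusted p under 0.05 in each comparison, split into genes higher (red) and lower (blue) at the later time. The pooled comparison has 122 and 161, the 4 single-time comparisons between the periods have 29 to 80 and 62 to 86, and the comparisons within a period have 2 to 13 and 9 to 15.

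Differences within each period were few. Between 24 h and 18 h, 28 of the genes were called (0.734%; 13 rose and 15 fell), against 1.5% of all genes tested. Between 66 h and 42 h, 11 were called (0.288%; 2 rose and 9 fell), against 0.426% of all genes tested. Unadjusted p values under 0.05 numbered 387 and 197. Only 1 gene of each set was also among the 283 of the pooled comparison, An04g02410 and An12g01270.

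The best covered gene of the 28, An01g14390, was picked for its reads after its values were seen. It held 0, 6.87 and 7.0 FPKM at 24 h, against 266, 201 and 176 FPKM at 18 h, or 0, 2 and 2 reads against 92, 65 and 54 reads, and fell by 5.74 on the log2 scale (SE 1.14, adjusted p = 0.0343). The adjusted p was 0.0511 to 0.0992 without any 1 of the 18 h libraries, 24 h replicate 2 or either 66 h library, and 0.215 with a pseudocount of 0.1 FPKM. With a replicate block the adjusted p was 0.0766. Later the gene was seen only as 1 read in 42 h replicate 3. Its drop thus came between 18 and 24 h, and the pooled comparison, where its difference was -4.50 (SE 1.41), left it at an adjusted p of 0.0606. An04g04740 had a low point at 24 h. It held 14.4, 10.5 and 21.4 FPKM there, against 70.6, 99.2 and 84.5 FPKM at 18 h (log2 difference -2.42, SE 0.49, adjusted p = 0.0396). The adjusted p was 0.0591 to 0.111 without any 1 of the 18 h libraries, 24 h replicates 1 or 2, or either 66 h library. It was 0.056 with no filter on low values, 0.073 with no variance trend and 0.0987 with a replicate block. In the later libraries it was at 30.8 to 65.6 FPKM, so pooling gave it a difference of 0.54 (SE 0.62, adjusted p = 0.689). An04g02410 had no read at 18 h, held 67.7, 29.5 and 15.1 FPKM at 24 h and 60.0 to 97.8 FPKM in the later libraries.

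Most of the other calls within a period rested on very few reads. The median total over all 11 libraries was 19 reads for the 28 genes and 18 reads for the 11, and the lowest was 3 in each set. An17g01160 had 1 read in each of the 3 libraries of 24 h, at 103, 112 and 115 FPKM, and none in any other library, and its adjusted p was 0.00429. An07g01300 had 3 reads in all, at 66 h, and an adjusted p of 0.0222. Both calls rest on 1 or 2 reads in each library that holds any, and with a pseudocount of 1 read per gene their adjusted p was 0.175 and 0.892.

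In the earlier period, 24 h replicate 1 lay closer to the later libraries than the others did, in the genes that rose. To place each library, the pooled test was run without it, and its mean position between the earlier (0) and the later (1) means was taken over the less abundant genes called in that run. Over the rises called without it (154 genes), 24 h replicate 1 lay at 0.52, while the 18 h libraries left out in turn lay at -0.01, 0.11 and 0.07 and the other two 24 h libraries at 0.16 and 0.10. It was above 0 in 126 of those 154 genes (81.8%), and the other earlier libraries were above 0 in 54.7% to 64.7% of theirs. Over the falls it lay at 0.24, as 18 h replicate 2 did, and the others lay at 0.08 to 0.14. The later libraries lay at 0.81 to 1.00 over the rises and at 0.77 to 0.95 over the falls, in genes called without them. The range of 10 to 100 FPKM was set over all 11 libraries, so each library still had a part in which genes were placed.

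**Figure D5:**
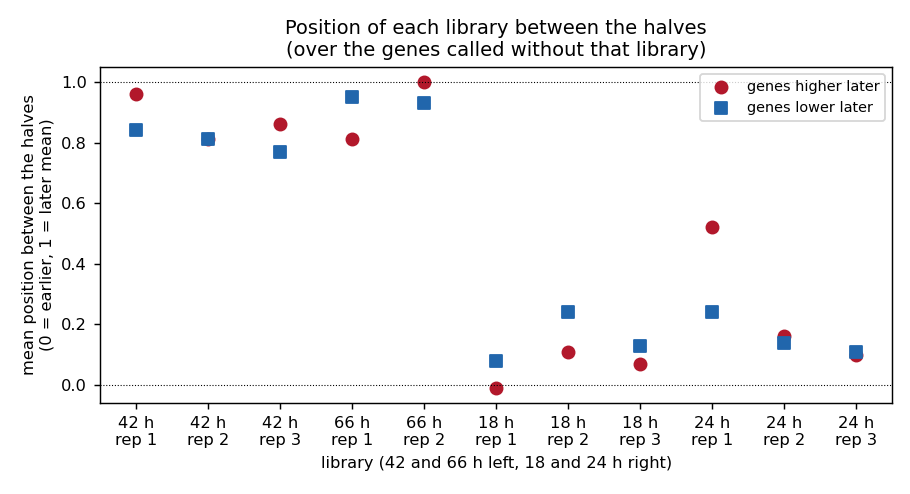
Mean position of each library between the earlier mean (0) and the later mean (1), over the less abundant genes called in a test without that library; circles are genes higher and squares genes lower in the later libraries. The later libraries (left) lie at 0.77 to 1.00 and the earlier ones (right) at -0.01 to 0.24, except 24 h replicate 1 at 0.52 over the genes that rose.

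Across the 3816 genes, the rank correlation of 24 h replicate 1 with the later libraries was 0.27 to 0.29. It was 0.14 to 0.22 for the other earlier libraries with the later ones. Pairs of later libraries reached 0.43 to 0.49, and pairs of earlier libraries without 24 h replicate 1 reached 0.30 to 0.42. With the other earlier libraries, 24 h replicate 1 reached 0.28 to 0.37, so over all these genes it was no nearer to the later libraries than to its own period. These values are across genes, which are not independent replicates, and the points share library depth and the filter. In the plain means, the 24 h mean lay above the 18 h mean in 85 of the 122 rises, but from 24 h replicates 2 and 3 alone it did so in 55, with 19 ties. Without 24 h replicate 1 the pooled comparison called 304 genes (154 rose and 150 fell), of which 236 were among the 283.

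The number of genes called also depended on single later libraries. Without 66 h replicate 2 it was 180 (59 rose and 121 fell), and without 42 h replicate 1 and 66 h replicate 1 the rises numbered 70 and 78. Of the 283 genes, 127 stayed called in all 23 other settings, and no gene of the 283 changed its direction in any of them.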

How the data were processed

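RNA sequencing libraries of total RNA from 11 samples were analysed. The authors deposited FPKM values, 1 per gene and library, for 10445 genes. RSEM was used, per the submitters' processing notes. Its version, and the aligner, build and annotation behind it, were not given in the sources used here. Since FPKM divides by the mapped total, a large change of a few abundant transcripts moves every other value of that library.

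Samples were grouped by the growth phase in the labels. Tests took the 8693 genes that reached 1 FPKM in 2 or more libraries. The scale was log2(FPKM + 1), and limma 3.58.1 (R 4.3.3) was run as an empirical Bayes test with a variance trend, two-sided, and Benjamini-Hochberg adjustment over all genes tested. The pooled comparison had 1 mean per period, and the others came from a fit with 1 mean per time. Differences on this scale are not log2 ratios of reads. Where libraries are at 0, 1 read is a large step on it, with a median worth of 15.6 FPKM. The difference can then exceed the change in reads. In An02g02830 the log2 difference was 4.51, while the ratio of reads per depth was only 4.72-fold. The threshold for a call was an adjusted p of 0.05. The fit was also run on simulated reads with an assumed spread and independent libraries. No outcome of that run is used here, and it does not vouch for the calls.

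Reads were recovered where low values were multiples of a step within a tolerance of 0.06, for 7788 genes. All values checked in these genes, up to 20 reads, were within 0.1 of a whole number. The tolerance of 0.06 for a step fixed this in advance, so it lends no support to the recovery. Ratios per depth have exact 95% intervals, which cover counting error only, as does the floor of 3 reads over a group. It is not known whether the deposited values rest on every read sequenced.

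RefSeq's gene table for ASM285v2 gave the symbols and the order of genes along each contig, and nothing else. Of the identifiers, 10417 matched and 28 did not. Gene lists could be applied by symbol alone. Lists of ribosome, respiratory chain, proteasome, transporter, cytochrome P450, oxidoreductase, cell wall and C-terminal signal genes held 0 members. The genes named were the 10 largest rises and falls among called genes with values above 0 in both periods and no overlap, the 5 with the highest mean among called genes at 0 in the other period, all genes with a symbol, neighbours, and the genes at the bounds. The genes, lists and tests were chosen with earlier results of these data known. The alternatives tried were other pseudocounts, filters, scalings and variance models, voom weights on recovered reads, a replicate block, equal weights for the times, and each library left out in turn. Tables were made with pandas 2.3.3, numpy 2.4.6, scipy 1.17.1 and matplotlib 3.10.9.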

Additional observations from a re-analysis of the deposited data

Results flagged for a closer look

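Of 51 groups of 5 or 6 values behind the genes named, 17 held a library far from the rest by Dixon's test. The usual rate of about 1 in 20 groups is for normally distributed values and does not apply to values from so few reads. In most of the 17 groups the other libraries of that period were at 0, so that 1 read is enough to stand apart.

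In the later libraries, a single value above 0 stood out in 8 of the genes that fell. These were 10.05 FPKM of An18g02410 in 66 h replicate 1, 9.08 FPKM of An12g01620 and 3.35 FPKM of An02g13940 in 42 h replicate 1, and 6.85 FPKM of An16g09170 in 66 h replicate 2. The rest were 25.11 FPKM of An07g02140, 14.16 FPKM of An01g14140 and 7.46 FPKM of An14g06140 in 42 h replicate 2, and 8.77 FPKM of An01g14510 in 42 h replicate 3. A value of 0 stood out among later values in An07g06220 and An07g04750 (66 h replicate 1, nearest other values 49.3 and 31.94 FPKM) and in An16g07080 (66 h replicate 2, nearest 51.19 FPKM).

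In the earlier libraries, 4 of the 6 values were those of 24 h replicate 1. It held the only earlier read of An14g00290 (10.63 FPKM) and of An04g07220 (14.24 FPKM), and the lowest earlier value of An18g02410 (71.89 FPKM, nearest 148.48) and of An04g08190 (34.41 FPKM, nearest 149.65). All 4 lay towards the later libraries. For An14g00290 and An04g07220 the other earlier values were 0, so no other direction was possible. The remaining 2 were 33.31 FPKM of An02g06130 in 18 h replicate 1 (nearest 144.23) and 0 FPKM of leu2A in 18 h replicate 2 (nearest 15.32).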

How the results depend on the processing

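The pooled comparison called 283 genes, and under the other settings it called 202 (pseudocount of 0.1) to 349 (equal weights for the 4 times), apart from the settings on recovered reads and those that leave out a library. Of all genes tested, the same settings called 7.06% and 11.2%. Tests with voom weights on recovered reads called 583 of 3758 genes (229 rose and 354 fell), 740 in at least 1 single-time comparison, 52 between 24 and 18 h and 5 between 66 and 42 h. Of all 7786 genes tested there, the pooled comparison called 874 (11.2%). The median log2 difference over all genes was then -0.30. Of the 283 genes, 264 were called there too. A pseudocount of 1 read per gene, chosen after seeing the data, called 473 of 3758 in the pooled comparison and 0 between 66 and 42 h, and 258 of the 283 were among the 473. Of all 7786 genes it called 688 (8.84%). In both settings on recovered reads, the less abundant genes were thus called at a higher share than all genes tested. A pseudocount of 0.1 gave 181 in at least 1 single-time comparison and 19 between 66 and 42 h, no variance trend gave 174 and 20, a pseudocount of 5 gave 5 between 66 and 42 h, and a filter of 5 libraries gave 4. That filter called 345 of 3460 genes in the pooled comparison, a share below the 14.4% of all genes tested there. Other scalings kept the pooled count at 269 to 287 and moved the share of rises from 43.1% to at most 50.6%. The FPKM of all genes summed to 968822 to 983397 in the later libraries and to 1054732 to 1100826 in the earlier ones. With each library rescaled to the same sum, 142 rose and 141 fell, so the excess of falls was not kept. Same-numbered libraries showed no shared deviation from the time means (median correlation 0.003, against 0 for other pairs). With so few reads per gene this could not exclude a pairing. A replicate block gave 223, 166, 14 and 1 for the pooled, any single-time, 24 against 18 h and 66 against 42 h counts. Leaving out 1 library gave 180 to 304 in the pooled comparison, 209 to 291 in any single-time comparison, 21 to 44 between 24 and 18 h and 6 to 22 between 66 and 42 h. Where 1 library is left at 66 h, it is assumed to vary like the other times. The causes of these moves were not tested. Depth limits the precision, with a median of 2 reads per gene and library and a median standard error of 1.07.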
